A study of Gallus gallus with 19 samples.

Results

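The genes examined here encode the enzymes that write, maintain and remove cytosine methylation in DNA, followed through a morpholino (MO) knockdown of Nanog, PouV or Klf4 in the neural plate border (NPB) of the chick embryo. They were chosen by name. DNMT1, DNMT3A and DNMT3B are the DNA methyltransferases, UHRF1 is the cofactor that brings DNMT1 to newly replicated DNA, and TET1, TET2 and TET3 are the dioxygenases that oxidise methylated cytosine. Of these 7 genes, 6 were followed among 24356 genes in the count table, and 5 of them were found by the gene name that the table gives. TET1 had no name there and was identified by its gene ID and its description, and TET3 was not analysed here. All 6 passed the filter on low counts, as did 18996 genes in all.

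Wild type embryos were electroporated at the gastrula stage HH4 with a translation blocking MO against one of the factors, the opposite side received a control MO, and tissue was collected between HH7 and HH8-. The 19 samples comprised 8 with control MO, 4 with Nanog MO, 4 with Klf4 MO (labelled KLF4 MO) and 3 with PouV MO, and the controls came from the Nanog (4), PouV (2) and Klf4 (2) experiments. The control sides carry the electroporation and an unrelated MO, and they belong to the same embryos as the knockdown sides. Each sample pooled dissected tissue of several embryos, so p-values measure the spread between these pools. A translation blocking MO stops protein synthesis without cutting its target mRNA, so the level of the target mRNA does not measure the knockdown.

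Samples with the same number were taken as the opposite sides of the same embryos, which gives 8 pairs: 4 of the Nanog, 2 of the PouV and 2 of the Klf4 experiment. The labels give only the number, and in Nanog pair 4 the deviations of the 2 samples from their group means were unrelated (r = -0.0468). Total counts ran from 31215191 to 44726348 per sample. No targeted mRNA passed edgeR's test after its own MO, in either direction. Fitted log2 fold changes were -0.30 (SE 0.328) for NANOG, 0.50 (SE 0.151, adjusted p = 0.129) for POU5F3, the chick PouV gene, and 0.34 (SE 0.284) for KLF4. NANOG averaged 8.0 ± 3.51 CPM (counts scaled to the TMM library size, SD, n = 8) in controls and 6.39 ± 1.26 (SD, n = 4) in Nanog MO. POU5F3 averaged 869 ± 141 in controls and 1224 ± 264 (SD, n = 3) in PouV MO, and KLF4 6.72 ± 1.38 and 8.07 ± 4.34 (SD, n = 4) in controls and Klf4 MO. Neural crest is the labelled cell type. Over the 19 samples TFAP2A averaged 125 ± 30.9 CPM (SD), PAX7 17.1 ± 8.90, FOXD3 43.0 ± 24.1 and SOX10, a marker of specified neural crest, 5.57 ± 1.08, and all of them were detected in every sample. Markers of neural plate, non-neural ectoderm, mesoderm and endoderm were present as well. PouV MO replicate 3 stood apart from the others. Its median correlation to them across genes was 0.953, against 0.966 to 0.982 for the rest. PouV MO fold changes of the 6 genes and of list genes against all controls are given with and without this sample. Group means, pair values, ratios and contrasts between knockdowns include it unless stated.

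DNA methylation in vertebrates sits mainly on cytosines followed by guanine. DNMT3A and DNMT3B place it on unmethylated DNA, whereas DNMT1 copies it to the daughter strand after replication, guided by UHRF1, which recognises hemimethylated sites. TET proteins oxidise the methyl group, and the oxidised base is then diluted by replication or excised and replaced. In the chick, DNMT3A has been linked to the choice between neural and neural crest fate, and DNMT3B to how long neural crest cells are produced. RNA levels measure neither the enzymes' activity nor methylation itself, and methylation was not measured in these samples.

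None of the 6 genes changed past the threshold after any of the 3 knockdowns. Most values lay on the lower side nevertheless. In edgeR's quasi-likelihood test with Benjamini-Hochberg adjustment over all 18996 genes, 0 of 6 passed 0.05 after Nanog MO, where 0.268% of all genes passed, 0 of 6 after PouV MO (0.669% of all genes) and 0 of 6 after Klf4 MO (0.0158% of all genes). DESeq2 also called 0 of 6 in each, where it called 0.595%, 2.71% and 0.411% of all genes. At an unadjusted p under 0.05 the counts were 0, 2 and 1 of the 6 genes, where 5.81%, 15.7% and 6.08% of all genes lay under it. The fitted log2 fold change was below 0 for 5 genes after Nanog MO, 5 after PouV MO and 6 after Klf4 MO. Its median over the 6 genes was -0.09, -0.26 (-0.11 without PouV MO replicate 3) and -0.14, beside medians of 0.0037, -0.00057 and -0.00094 over all genes. These 3 comparisons share the same 8 controls, so their directions are not independent of one another. They hold no term for the pairs, so their SEs and p-values treat the 2 samples of a pair as independent.

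**Figure D1:**
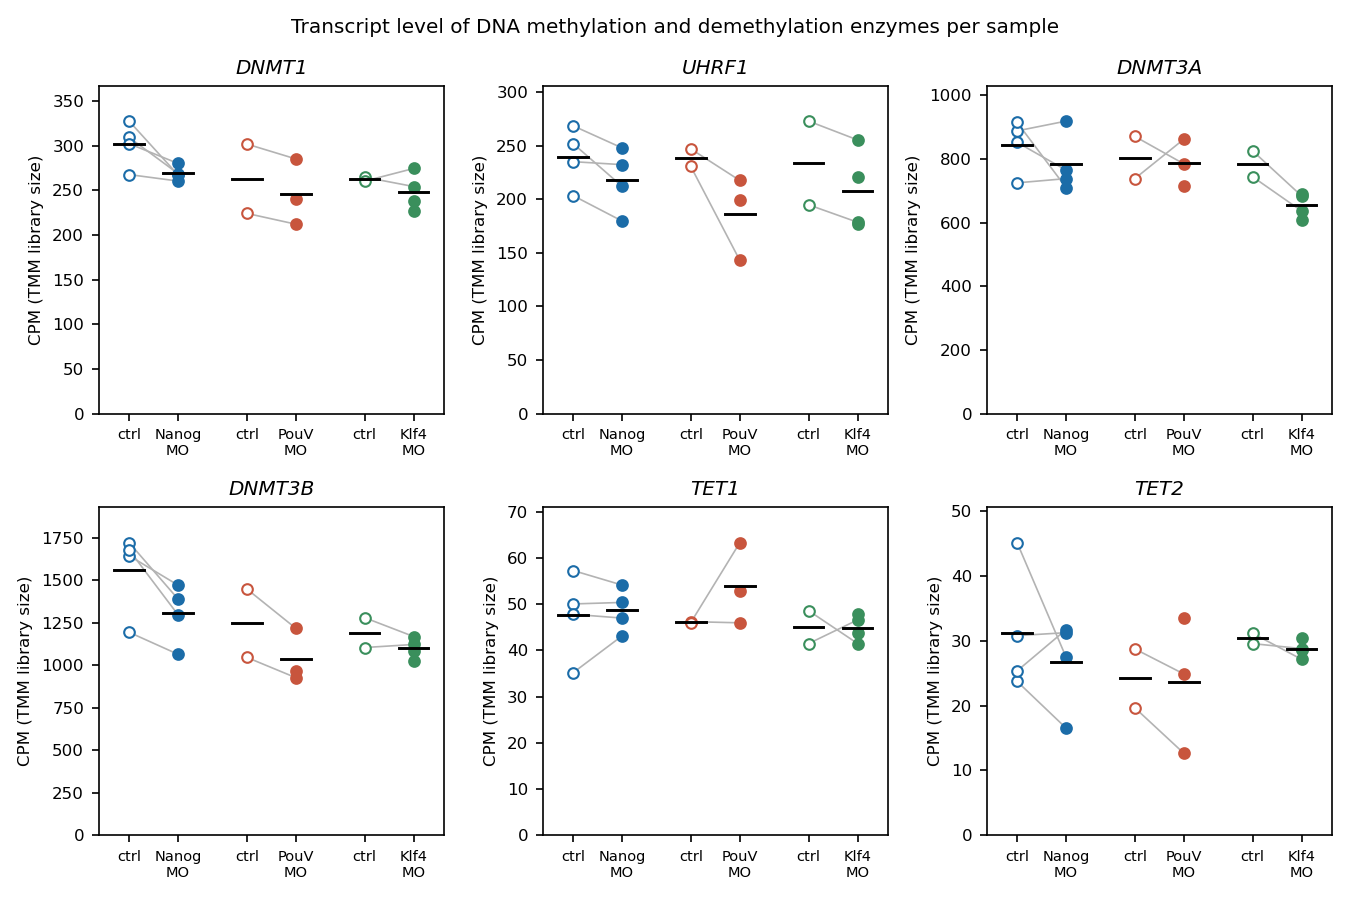
Level of each gene in every sample, in CPM scaled by the TMM library size, from an axis that starts at 0. Open circles are control MO samples and filled circles knockdown samples, coloured by experiment. Grey lines join same-numbered samples and black bars are group means. The 4 Klf4 MO samples of DNMT3A sit between 607 and 690 CPM, below all controls, while the other groups overlap the range of the 8 controls.

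DNMT3B, a de novo methyltransferase that is highly expressed in early embryonic cells, had the lowest adjusted p of the 6 genes over the paired samples. Its control samples ran from 1046 to 1722 CPM with a median of 1365. The Nanog MO samples held 1389, 1064, 1471 and 1296 CPM (replicates 1 to 4). In the PouV MO samples 1217, 926.5 and 966.8 CPM were measured (replicates 1, 3 and 4), and in the Klf4 MO samples 1169, 1026, 1122 and 1084. Every PouV MO and Klf4 MO sample lay below the control mean, 2 of 3 PouV MO samples and 1 of 4 Klf4 MO samples lay below the lowest control, and the Nanog MO samples stayed inside the control range. The group means were ordered control (1390 ± 271, SD, n = 8), Nanog MO (1305 ± 176, n = 4), Klf4 MO (1100 ± 60.5, n = 4) and PouV MO (1037 ± 157, n = 3), and the step between each neighbouring pair was smaller than the control SD. In bulk tissue, fewer cells with the transcript and less transcript per cell cannot be told apart.

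The fitted log2 fold change of DNMT3B against all controls was -0.38 (SE 0.126) after PouV MO, with an adjusted p = 0.166. Without PouV MO replicate 3 it was -0.27 (SE 0.143, adjusted p = 0.791), and over all alternatives other than left-out samples the adjusted p ranged from 0.0264 to 1. After Nanog MO it was -0.12 (SE 0.112) and after Klf4 MO -0.14 (SE 0.131). Over the edgeR and DESeq2 alternatives other than left-out samples the Nanog MO value ran from -0.26 to -0.046, with a lowest adjusted p of 0.0833. The Klf4 MO value was -0.34 (SE 0.132, adjusted p = 0.149) without the RUVs factor, a term for unwanted variation, and -0.054 with the replicate block and no factor, and the adjusted p over the alternatives ranged from 0.149 to 1. Controls of the PouV and Klf4 experiments were themselves lower in DNMT3B than those of the Nanog experiment, by log2 differences of -0.32 and -0.38 (adjusted p = 0.486). The pooled controls thus mix levels of 1560 ± 246 (SD, n = 4), 1247 ± 286 (n = 2) and 1192 ± 125 CPM (n = 2). The knockdown samples of the Nanog, PouV and Klf4 experiments averaged 1305, 1037 and 1100 CPM beside these. The order of the group means given above therefore does not rank the knockdowns by their effect. Among the control samples 0 of the 6 genes differed between experiments at an adjusted or an unadjusted p of 0.05, where 0.00526% and 11.7% of all genes did.

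Comparing same-numbered samples of an experiment removed those differences. DNMT3B was lower on the knockdown side in 7 of 8 pairs. The log2 differences were -0.31, -0.17, -0.16 and -0.37 in the Nanog pairs 1 to 4, -0.25 and -0.17 in the PouV pairs 1 and 3, and -0.13 and 0.023 in the Klf4 pairs 1 and 3. Klf4 pair 3 was thus the only one in which the sides were level or higher. The mean difference was -0.19 ± 0.121 (SD, n = 8 pairs). In the paired edgeR fit the log2 fold change was -0.19 (SE 0.0479, adjusted p = 0.0728). Leaving out 1 pair at a time gave adjusted p from 0.0492 to 0.191, the lowest without Klf4 pair 3, and DESeq2 on the same pairs gave 0.0153; over the alternatives the range was 0.0153 to 0.777. Of all genes, 8.59% were lower in at least 7 of 8 pairs, and 11.5% of the genes with a mean of at least 5 CPM.

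UHRF1, which recognises hemimethylated DNA through its SRA domain and is needed for maintenance methylation, was lower on the knockdown side in 8 of 8 pairs. Controls ran from 195 to 273 CPM with a median of 241. Nanog MO samples held 248, 180, 212 and 233 CPM (replicates 1 to 4), PouV MO samples 218, 143 and 199 CPM (replicates 1, 3 and 4), and Klf4 MO samples 256, 221, 179 and 177 CPM (replicates 1 to 4). All groups overlapped the controls, although 2 Klf4 MO samples and 1 sample of each other knockdown lay below the lowest control. Group means were ordered control (238 ± 28.2, SD), Nanog MO (218 ± 29.5), Klf4 MO (208 ± 37.8) and PouV MO (187 ± 39.0), with each step smaller than the SD of its groups.

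Within pairs the log2 difference of UHRF1 was -0.12, -0.18, -0.25 and -0.017 for Nanog, -0.18 and -0.69 for PouV, and -0.096 and -0.13 for Klf4. PouV pair 3 was far lower than the rest, and Nanog pair 4 was nearly level. The paired fit gave -0.20 (SE 0.0655, adjusted p = 0.159), and without PouV pair 3 -0.14 (SE 0.0390, adjusted p = 0.114). The adjusted p was 0.0818 in DESeq2 and ranged from 0.0818 to 0.832 over the alternatives. Being lower in all 8 pairs was a property of 2.51% of all genes and of 3.69% of those with at least 5 CPM. Against all controls the log2 fold change was -0.33 (SE 0.140, adjusted p = 0.258) after PouV MO, and -0.15 (SE 0.137, adjusted p = 0.935) without PouV MO replicate 3. UHRF1 belongs to a list of commonly affected genes that the study drew from these samples, so its direction here is not independent evidence.

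**Figure D2:**
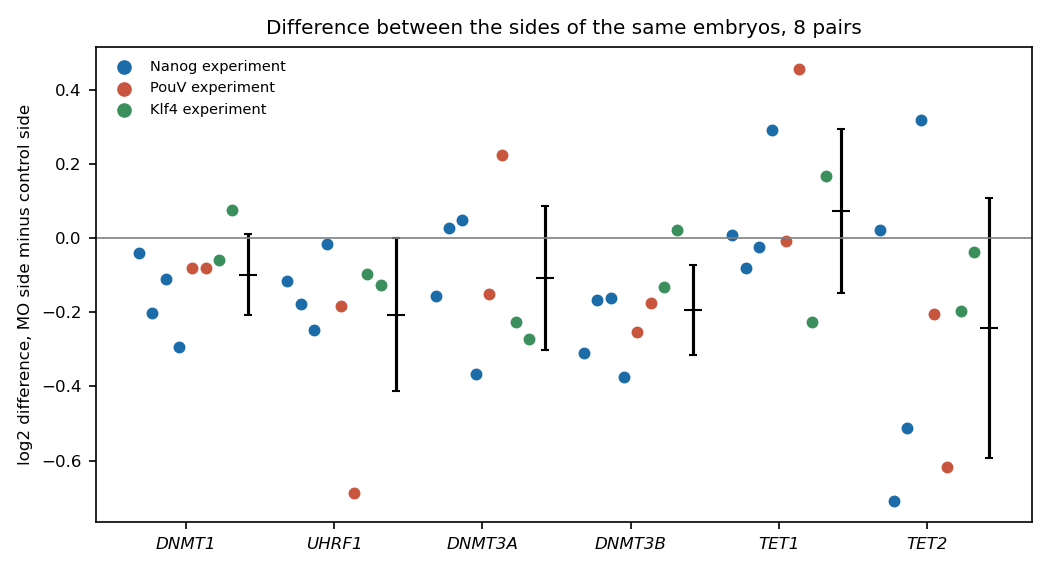
Log2 difference of each gene between the knockdown side and the same-numbered control side (log2 of CPM + 0.5), 1 point a pair. Pairs are in the order Nanog 1 to 4, PouV 1 and 3, Klf4 1 and 3, with the mean and SD over 8 pairs in black. UHRF1 points all lie below 0, DNMT3B has 1 point just above it, and TET1 and TET2 points spread over both sides.

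DNMT1, the maintenance methyltransferase, showed a smaller difference. Control samples ran from 224 to 328 CPM with a median of 285, and the Nanog MO samples held 260, 269, 280 and 267 CPM. In the PouV MO samples the values were 285, 212 and 241 CPM, and in the Klf4 MO samples 254, 239, 275 and 227. All 4 Nanog MO and all 4 Klf4 MO samples lay below the control mean of 282 ± 33.7 (SD, n = 8), yet every one of them was above the lowest control. That mean mixes controls of 301.7 ± 25 CPM (SD, n = 4) in the Nanog, 263.1 ± 54.9 (n = 2) in the PouV and 262.5 ± 3.18 (n = 2) in the Klf4 experiment. Klf4 MO replicate 3 (274.5 CPM) lay above both Klf4 controls (264.8 and 260.3 CPM). The means of 269 ± 8.17, 246 ± 36.8 and 248.5 ± 20.7 CPM after Nanog MO, PouV MO and Klf4 MO differed from each other by less than the SD of the controls. Within pairs DNMT1 was lower on the knockdown side in 7 of 8, with Klf4 pair 3 higher by 0.077. Being lower in at least 7 pairs held for 8.59% of all genes and for 11.5% of those with at least 5 CPM. The paired fit gave a log2 fold change of -0.095 (SE 0.0471, adjusted p = 0.363), and the single knockdowns gave -0.074 (SE 0.0944), -0.19 (SE 0.105) and -0.14 (SE 0.111). The PouV MO value ran from -0.30 without PouV MO replicate 1 to -0.086 without replicate 3, and the Klf4 MO value turned to 0.0093 once the factor was replaced by the replicate block.

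DNMT3A, the other de novo methyltransferase, followed another pattern, with its lowest values after Klf4 MO. Controls ran from 725 to 915 CPM with a median of 839. Klf4 MO samples held 637, 607, 684 and 690 CPM (replicates 1 to 4), and all 4 lay below every control, which was so for 1.37% of all genes in that comparison. The Nanog MO samples held 765, 738, 919 and 710 CPM and the PouV MO samples 785, 862 and 717, and both groups overlapped the controls; the Nanog MO samples reached past both ends of the control range, and 1 PouV MO sample lay below it. Group means were 820 ± 74.5 (SD) in controls, 788 ± 72.9 after PouV MO, 783 ± 93.5 after Nanog MO and 654 ± 39.8 after Klf4 MO, and the last step alone exceeded the SD of either neighbour.

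The fitted log2 fold change of DNMT3A after Klf4 MO was -0.24 (SE 0.0910, adjusted p = 0.637). Without the RUVs factor it was -0.33 with an adjusted p = 0.0493, so the call depends on that term, and over all alternatives the adjusted p ranged from 0.0493 to 1. In the edgeR fit without the factor 440 of 18996 genes passed, against 3 with it. The factor takes values from -1.93 to -0.281 in the samples of the Klf4 experiment and from -0.0351 to 1.46 in those of the Nanog experiment. In both Klf4 pairs DNMT3A was lower on the knockdown side, by log2 differences of -0.23 and -0.27. The difference between Klf4 MO and Nanog MO was -0.16 (SE 0.106, adjusted p = 0.781), and that between PouV MO and Klf4 MO 0.20 (SE 0.105, adjusted p = 0.593). Over all 8 pairs DNMT3A was lower in 5, as 38.3% of all genes and 44% of those with at least 5 CPM were in at least 5. The mean was -0.11 ± 0.194 (SD), with PouV pair 3 higher by 0.22 and Nanog pair 4 lower at -0.37. The paired edgeR fit gave -0.11 (SE 0.0635, adjusted p = 0.460). Against all controls DNMT3A was at -0.081 (SE 0.0786) after Nanog MO. After PouV MO it was at -0.046 (SE 0.0865), or -0.094 (SE 0.0964) without PouV MO replicate 3.

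The ratio of DNMT3B to DNMT3A within a sample does not depend on scaling. It averaged 1.69 ± 0.226 (SD, n = 8) in controls, 1.67 ± 0.185 after Nanog MO, 1.68 ± 0.113 after Klf4 MO and 1.33 ± 0.239 after PouV MO, where the samples held 1.55, 1.07 and 1.35. Controls ran from 1.34 to 2.02, so 2 of the 3 PouV MO samples lay within their range. Within pairs the log2 ratio was lower on the knockdown side in all 4 Nanog pairs (-0.15, -0.19, -0.21 and -0.0071) and both PouV pairs (-0.10 and -0.40), and higher in both Klf4 pairs (0.095 and 0.295). That opposite direction was not tested.

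TET1 and TET2, present at lower counts, varied more between the sides. TET1, which carries a CXXC domain that binds unmethylated CpG, ran from 35.2 to 57.3 CPM in controls with a median of 47.1. Nanog MO samples held 50.4, 54.2, 47.0 and 43.2 CPM, PouV MO samples 46.0, 63.4 and 52.8, and Klf4 MO samples 41.5, 47.9, 46.6 and 43.7. Only PouV MO replicate 3 lay outside the control range. TET1 was lower on the knockdown side in 4 of 8 pairs, and the extremes were -0.23 in Klf4 pair 1 and 0.46 in PouV pair 3. Its log2 fold change was 0.21 (SE 0.122, adjusted p = 0.406) after PouV MO and 0.067 (SE 0.131, adjusted p = 0.971) without replicate 3. The fits gave 0.064 (SE 0.112) after Nanog MO and -0.059 (SE 0.132) after Klf4 MO, both of which changed sign with the replicate block and the RUVs factor (-0.11 and 0.13), and 0.077 (SE 0.0744, adjusted p = 0.662) over the pairs.

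TET2, which lacks a CXXC domain of its own, ran from 19.7 to 45.2 CPM in controls with a median of 29.2. The values were 31.3, 27.4, 16.5 and 31.7 CPM in Nanog MO samples, 24.9, 12.6 and 33.5 in PouV MO samples and 27.1, 28.6, 28.8 and 30.5 in Klf4 MO samples. Its spread was wide: the 4 Klf4 MO samples lay close together, whereas 1 Nanog MO and 1 PouV MO sample lay below all controls. The lowest value rests on 434 reads, with an exact 95% Poisson interval of 11.5 to 13.9 CPM that covers counting error only. TET2 was lower on the knockdown side in 6 of 8 pairs, from -0.71 in Nanog pair 2 to 0.32 in Nanog pair 4. Of all genes, 20.3% were lower in at least 6 pairs, and 25.2% of those with at least 5 CPM. The paired fit gave -0.24 (SE 0.106, adjusted p = 0.302). Fitted values against all controls were -0.097 (SE 0.197) after Nanog MO, -0.40 (SE 0.226, adjusted p = 0.399) after PouV MO, which became -0.12 (SE 0.195) without replicate 3, and -0.34 (SE 0.238) after Klf4 MO. The Klf4 MO value depended on the RUVs factor: it was -0.026 (SE 0.222) without the factor and 0.19 with the factor and the replicate block, and the group means were 28.8 CPM after Klf4 MO and 29.3 CPM in controls.

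**Figure D3:**
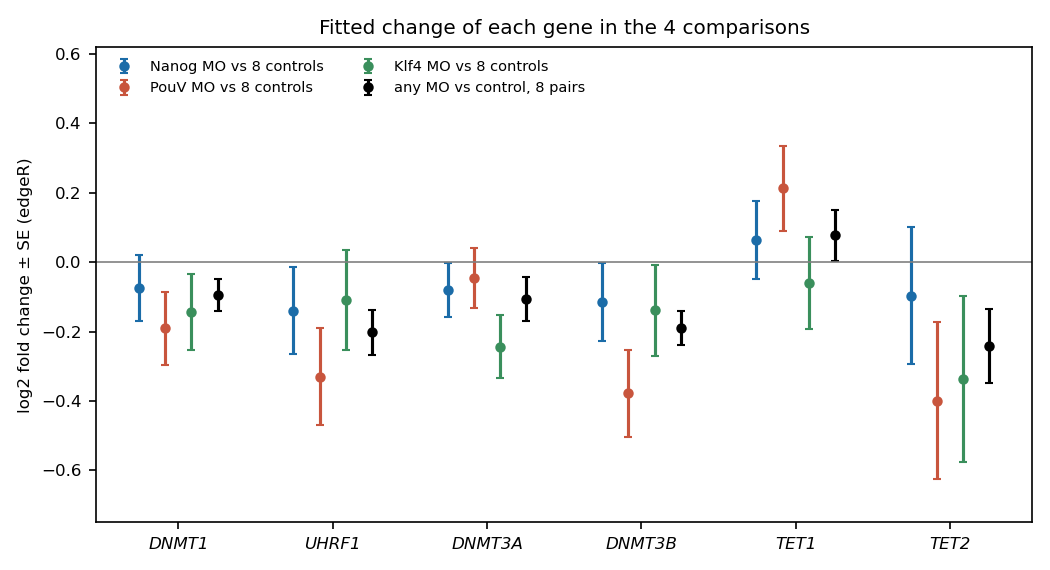
Fitted log2 fold change of each gene with its SE from edgeR, for each knockdown against the 8 controls and for knockdown against control over the 8 pairs. DNMT3B has its lowest value after PouV MO (-0.38) and DNMT3A after Klf4 MO (-0.24), the values above 0 all belong to TET1, and no value passed the adjusted threshold.

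Counted over genes and pairs, 37 of 48 differences were below 0. In the 8 pairs 4, 5, 5 and 4 of the 6 genes were lower for Nanog, 6 and 4 for PouV, and 6 and 3 for Klf4, where between 48.4% and 51.2% of all genes were lower in each pair. Some of these genes vary with or against each other, as described further on, and all share the same pairs, so the count is a description. In the paired edgeR fit 0 of the 6 genes passed the adjusted threshold, where 1.53% of all genes did (153 lower and 137 higher), and 3 lay under an unadjusted p of 0.05, where 15.2% of all genes did. DESeq2 called 1 of the 6, DNMT3B, where it called 4.19% of all genes. The median log2 fold change of the 6 genes was -0.15 and that of all genes 0.0095.

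The knockdowns were also set against each other. Of the 6 genes 0 passed in PouV MO against Nanog MO (0.174% of all genes), 0 in Klf4 MO against Nanog MO (0.0263%) and 0 in PouV MO against Klf4 MO (0.0948%) in edgeR's test, and 0 lay under an unadjusted p of 0.05 in each, where 13%, 7.46% and 9.37% of all genes did. The largest contrast of DNMT3B was -0.26 (SE 0.142, adjusted p = 0.449) between PouV MO and Nanog MO, which turned to 0.039 with the replicate block, and that of TET1 was 0.27 (SE 0.151, adjusted p = 0.614) between PouV MO and Klf4 MO. No gene can thus be called particular to one knockdown.

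The proteins that work beside these enzymes were followed as lists. The shares of all genes that passed in each comparison are those given above. Maintenance partners, which recruit UHRF1 and DNMT1 or open chromatin for them, had 14 of 17 genes tested, and none passed in any comparison. Over the pairs 12 of the 14 were on the lower side, with a median of -0.057, where 47.5% of all genes were and the median of all genes was 0.0095. UHRF2, a relative of UHRF1, was at -0.18 (SE 0.0491, adjusted p = 0.0893) and EHMT1, a histone H3 lysine methyltransferase, at -0.10 (SE 0.0452, adjusted p = 0.297). After Klf4 MO CDCA7L, a relative of the HELLS activator CDCA7, was at -0.33 (SE 0.0841, adjusted p = 0.238).

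Among methyl-CpG binding proteins and their relatives, some of which read the mark, 6 of 10 genes were tested with none passing. MBD3, a subunit of the NuRD complex, was at -0.15 (SE 0.0530, adjusted p = 0.200) over the pairs and at -0.26 (SE 0.0868, adjusted p = 0.164) after PouV MO, or -0.13 without replicate 3. Among genes for removal of oxidised bases and TET partners, 19 of 21 were tested, with 10 on the lower side and 9 on the higher over the pairs, a median of -0.0026 and none passing. TDG, the glycosylase that excises the bases made by TET enzymes, was at -0.41 (SE 0.107, adjusted p = 0.0888) after PouV MO, and at -0.25 (adjusted p = 0.630) without replicate 3. OGT, the sugar transferase that binds TET proteins, was at -0.30 (SE 0.0836, adjusted p = 0.111) in that comparison and at -0.22 without replicate 3, and CXXC5, a CXXC protein that binds unmethylated CpG, at -0.16 (SE 0.0475, adjusted p = 0.124) over the pairs. On the higher side in edgeR, D2HGDH was at 0.23 (SE 0.0788, adjusted p = 0.192) over the pairs. GADD45G was at 0.59 (SE 0.248, adjusted p = 0.738) after Klf4 MO. After PouV MO it was at 0.67 (SE 0.226, adjusted p = 0.168), or 0.84 without replicate 3.

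Methyl donor metabolism supplies S-adenosylmethionine to the methyltransferases. Here 20 of 23 genes were tested, and 18 were on the lower side over the pairs with a median of -0.072 and none passing, beside the 47.5% of all genes on the lower side. The 18 include MAT1A (-0.66, SE 0.883) and MAT2A (-0.88, SE 0.582). Their mean levels were only 0.030 and 0.091 CPM, so their directions carry little weight. MTHFD1, an enzyme of the folate cycle, was at -0.18 (SE 0.0472, adjusted p = 0.0858), AHCYL2, a homologue of the enzyme that clears S-adenosylhomocysteine, at -0.19 (SE 0.0540, adjusted p = 0.112), and MTHFD2, a mitochondrial folate enzyme, at 0.36 (SE 0.124, adjusted p = 0.175) after PouV MO, or 0.24 without replicate 3. In the list of S phase genes, which holds UHRF1, 42 of 43 were tested and 38 were on the lower side over the pairs, with a median of -0.092, again beside 47.5% of all genes. That list shares PCNA, HELLS and CDCA7 with the maintenance partners, so the counts of these lists are not independent. Only POLA1, the catalytic subunit of DNA polymerase alpha, passed, and only after PouV MO, where 0.669% of all genes passed. Its log2 fold change there was -0.40 (SE 0.0909, adjusted p = 0.0495 in edgeR). POLA1 no longer passed without PouV MO replicate 3 (-0.32, SE 0.109, adjusted p = 0.521).

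**Figure D4:**
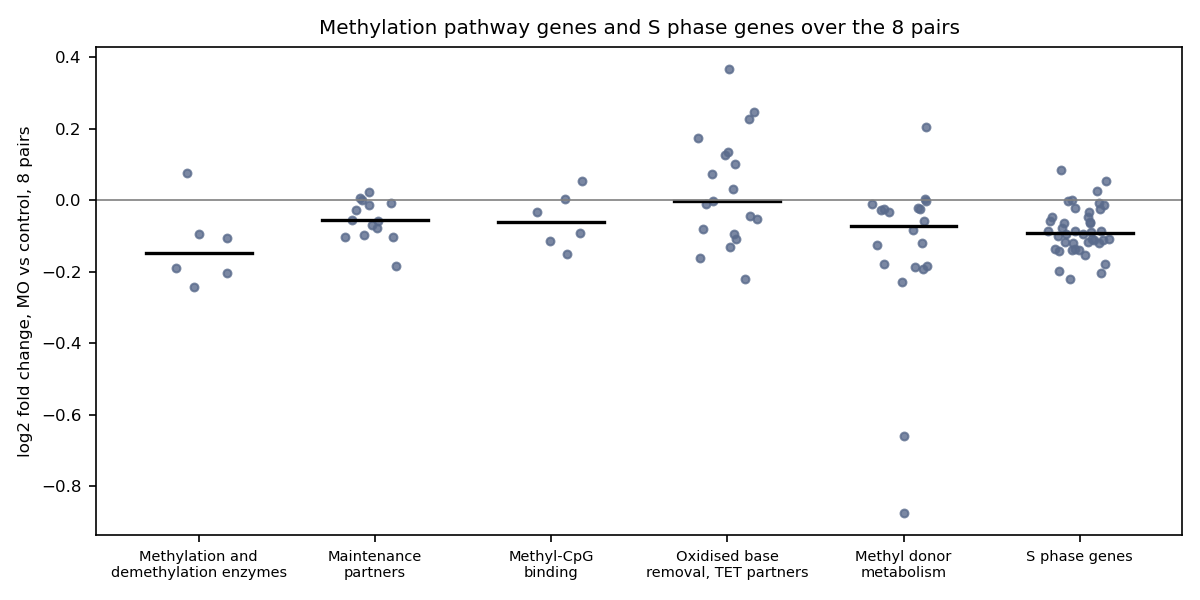
Log2 fold change of every tested gene of 6 lists over the 8 pairs, 1 point a gene with the list median as a bar. The medians run from -0.15 for the methylation and demethylation enzymes to -0.0026 for oxidised base removal, and no point passed the adjusted threshold.

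The genes were next compared with one another and with other genes across the 19 samples, after the mean of each experiment had been subtracted from log2(CPM + 0.5). These correlations are descriptions over 19 samples in which 8 pairs are taken to share embryos and all share the scaling. The difference between knockdown and control samples was left in, so shifts between the sides enter every correlation given here and below. DNMT3B went with UHRF1 (r = 0.704), DNMT1 (r = 0.594) and DNMT3A (r = 0.585) and against TET1 (r = -0.552), whereas DNMT3A and UHRF1 were unrelated (r = 0.019). Without the 2 samples farthest from the median of the other gene the relation of DNMT3B to UHRF1 was 0.578, to DNMT1 0.393, to DNMT3A 0.690 and to TET1 -0.419. Within the Nanog experiment (n = 8) they were 0.842, 0.293, 0.812 and -0.562, and within the Klf4 experiment (n = 6) 0.646, 0.558, 0.364 and 0.138. The relation to DNMT1 was thus weak in the Nanog experiment, and the opposite course of TET1 was not seen in the Klf4 experiment. The 5 samples of the PouV experiment are too few for a value of their own.

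Among 9998 other named genes with at least 5 CPM, UHRF1 was most like DHX15 (r = 0.953), an RNA helicase of the spliceosome, and RNF145 (r = 0.950). DNMT3B was most like SF3A1 (r = 0.904), a subunit of the U2 snRNP, and CAPN11 (r = 0.899), and DNMT1 like ESPL1 (r = 0.892), the separase that releases sister chromatids, and IGSF9 (r = 0.859). DNMT3A came closest to FAM118B (r = 0.844) and COIL (r = 0.811), the coilin of Cajal bodies. TET2 matched SLC4A7 (r = 0.974), a bicarbonate transporter, and BACH2 (r = 0.953), a transcription factor, and TET1 had the weakest neighbours, IGF1R (r = 0.775) and FYTTD1L (r = 0.769). High likeness was common, as the top 1% of genes exceeded 0.853 for UHRF1, 0.886 for TET2, 0.761 for DNMT3B, 0.723 for DNMT1, 0.668 for DNMT3A and 0.569 for TET1.

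UHRF1 also followed the mean of 41 other S phase genes (r = 0.861, and 0.832 without the 2 samples farthest from the median). Within the Nanog experiment its value was 0.876 and within the Klf4 experiment 0.964. DNMT3B did so less closely over the 19 samples (r = 0.655, and 0.703 without the 2 farthest samples) and within the Klf4 experiment (r = 0.478). In the Nanog experiment, however, the value of DNMT3B was 0.956, above that of UHRF1. S phase genes were lower on the knockdown side in 7 of 8 pairs, with a median log2 difference of -0.088. The Nanog and PouV pairs ran from -0.231 to -0.0265, whereas both Klf4 pairs were nearly level (0.0071 and -0.00925). Of the 42 tested genes of the list, 22 were on the higher side after Klf4 MO and 20 on the lower, with a median log2 fold change of 0.00965.

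Markers of neighbouring tissues moved between the sides as well. The summed CPM of 8 non-neural ectoderm markers was higher on the knockdown side in 8 of 8 pairs (median log2 difference 0.498, from 0.272 to 0.946), and ran from 495 to 904 CPM in controls and from 726 to 1451 in knockdown samples. Most of that sum is KRT18 and EPCAM (means 330 and 335 CPM over the 19 samples), and 3 of the 8 markers were on the lower side, TP63 (-0.24, adjusted p = 0.201), DLX3 (-0.15) and TFAP2C (-0.12). Endoderm markers, 9 genes, were higher in 7 of 8 pairs (median 0.433) and ran from 197 to 1178 and from 376 to 1478 CPM. Most of the endoderm sum is APOA1 and GATA5 (means 318 and 227 CPM), and all 9 genes were on the higher side in the paired fit. The 12 mesoderm markers were higher in 7 of 8 pairs (median 0.29). Neural plate markers, 8 genes, were lower in 8 of 8 pairs (median -0.185) and ran from 580 to 1403 CPM in controls and from 439 to 984 in knockdown samples. The NPB and neural crest sum was mixed, lower in 5 pairs and higher in 3, from -0.609 in Nanog pair 4 to 0.317 in Klf4 pair 3, and of its 13 markers 10 were on the lower side and 3 on the higher (ETS1 0.18, BMP4 0.063 and SOX10 0.0057). Of single markers, PAX7, ZIC1, TFAP2B and SOX9 (4 of 13 NPB and neural crest markers) and SOX2, SOX1 and LMO1 (3 of 8 neural plate markers) passed as lower in the paired edgeR fit, and EPCAM (1 of 8) and APOA1 (1 of 9 endoderm markers) as higher. Of all genes 1.53% passed in that fit, 0.805% as lower and 0.721% as higher.

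DNMT3B went against the markers of endoderm (r = -0.850) and non-neural ectoderm (r = -0.805) and with those of the neural plate (r = 0.601) over the 19 samples. Within the Nanog experiment these were -0.949, -0.932 and 0.900, and within the Klf4 experiment -0.672, -0.253 and 0.111. For UHRF1 the values over the 19 samples were -0.629, -0.614 and 0.477. Without the 2 samples farthest from the marker median they were -0.571, -0.343 and 0.448. Within the Nanog experiment they were -0.706, -0.681 and 0.686, and within the Klf4 experiment -0.944, -0.219 and 0.588. Mesoderm markers gave -0.651 for DNMT3B and -0.666 for UHRF1, and markers of blood and endothelium -0.686 and -0.591. Those of notochord and axial midline gave -0.156 and -0.0562. All of these correlations include the shifts between knockdown and control sides described above, so they partly restate them. The part of these tissues in the lower DNMT3B and UHRF1 values was not tested.

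**Figure D5:**
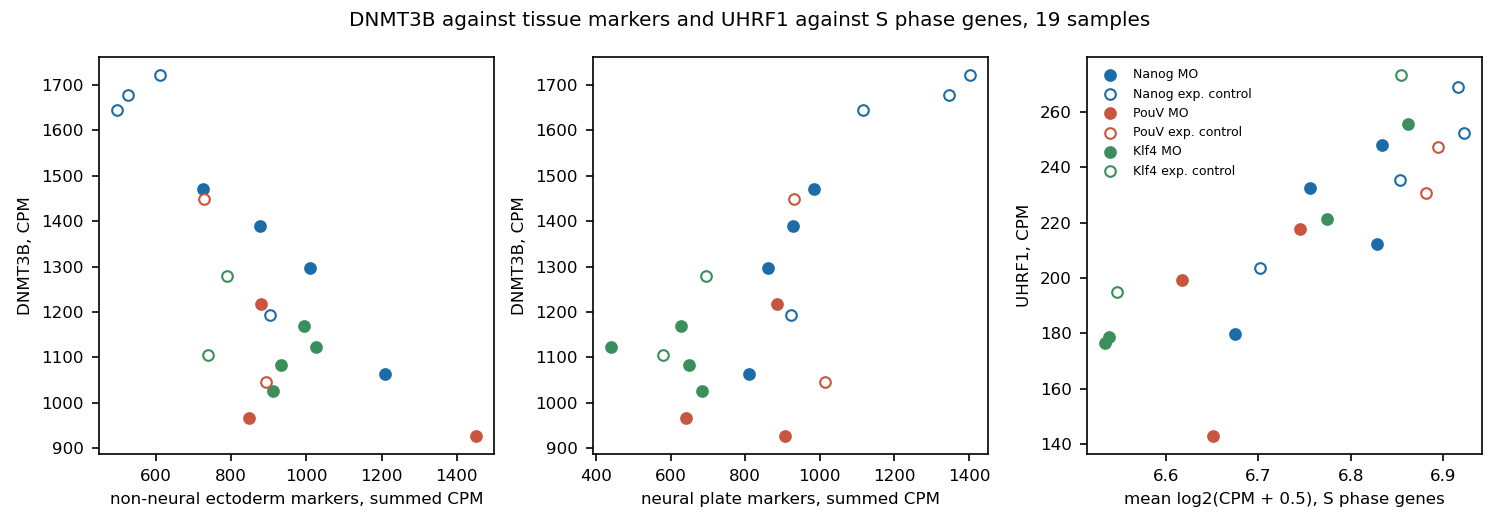
DNMT3B against the summed CPM of non-neural ectoderm and of neural plate markers, and UHRF1 against the mean log2(CPM + 0.5) of 41 S phase genes, 1 point a sample with the experiment means left in. Open circles are controls; 3 Nanog controls combine the highest DNMT3B values (1645 to 1722 CPM) with the lowest non-neural ectoderm sums, and UHRF1 is low where S phase genes are low.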

How the data were processed

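Bulk RNA sequencing of 19 samples was analysed. Per the labels, the authors' processing notes name STAR 2.7.2a and GRCg6a, and the authors deposited raw counts per gene and a table of TMM-scaled CPM, a signal unit that the values computed here matched (ratio 1). The filtered count table was not used. Tests used the deposited counts after genes whose highest count did not exceed 5 had been removed, with edgeR 4.0.16 (R 4.3.3, limma 3.58.1), TMM and quasi-likelihood F tests; p-values of all 18996 genes were adjusted by Benjamini-Hochberg and called at 0.05. Knockdowns were fitted against all 8 controls with 1 RUVs factor from the 1000 least variable genes and no term for the pairs. The 8 pairs were fitted with the pair as block, without the factor. SEs were derived from the fold change and the F statistic. Scripts were tested on simulated data with 100 genes changed at each size. A log2 change of 0.3 was called for 1% (Nanog MO), 2% (PouV MO), 3% (Klf4 MO) and 4% (8 pairs) of them. One of 1 was called for 90%, 77%, 85% and 96%. Changes as small as 0.3 were thus mostly missed in these simulated fits.

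The pairing was inferred from the bilateral design and the shared replicate numbers, and in every pair it rests on these. Deviations of same-numbered samples from their group means correlated from -0.0468 (Nanog pair 4) to 0.665, median 0.505, with 7 of 8 over 0.1. Samples with different numbers were not compared in this way. Levels across genes were also correlated between all samples. In Nanog pairs 1 and 2, PouV pair 1 and Klf4 pairs 1 and 3, each side was closest to its same-numbered partner. In Nanog pair 3 and PouV pair 3 this held for the knockdown side only, and in Nanog pair 4 for neither side. Control deviations were taken from the mean of all 8 controls, so differences between experiments enter them. These correlations thus describe the pairs and do not test the pairing.

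Other settings tried were no or 2 RUVs factors, RLE scaling, other gene filters, DESeq2 1.42.0, own controls only, the replicate block, and leaving out each sample or pair. List genes were refitted without PouV MO replicate 3, a setting chosen after seeing the data. The genes and lists were chosen with earlier results of these data known. All 6 genes were named, and of each other list those called or the 2 with the smallest p per comparison where they help. Gene names came from the authors' table for 12495 of the tested genes and from RefSeq by gene ID for 1205. Transcript lengths were not used here, so levels were not compared between genes. Total counts of 31215191 to 44726348 per sample gave at least 434 reads for every value of the 6 genes. Single-cell and spatial data of the study were not analysed here.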

Additional observations from a re-analysis of the deposited data

Results flagged for a closer look

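Results of 1 sample stood apart within their groups. Nanog control replicate 2 held 1194 CPM of DNMT3B, far below the other Nanog controls, and the same sample held 45.2 CPM of TET2, the highest of the 8 controls. Of 28 groups examined in this way 2 stood out, and chance gives about 5% of groups. The DNMT3B to DNMT3A ratio was higher on the knockdown side in every Klf4 pair and lower in every Nanog and PouV pair. The mean log2 change of the Klf4 pairs exceeded that of the Nanog pairs by 0.336 and that of the PouV pairs by 0.445, a difference that was not tested.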

How the results depend on the processing

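Of 751 alternative values, 726 kept their direction and their side of the threshold, 4 passed it, 17 turned direction and 4 counts of called genes moved from 0 to 1. DNMT3B passed in edgeR after PouV MO with 2 RUVs factors (-0.41, adjusted p = 0.0264, count 1), where 166 of 18996 genes passed. It also passed over the 8 pairs in DESeq2 (-0.19, adjusted p = 0.0153, count 1), where 796 genes passed. DNMT3A passed in edgeR after Klf4 MO without a RUVs factor (-0.33, adjusted p = 0.0493, count 1), where 440 genes passed. Leaving out 1 pair gave counts from 0 to 1. The 1 was DNMT3B without Klf4 pair 3 (-0.22, adjusted p = 0.0492 in edgeR), where 276 genes passed.

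Without the RUVs factor the Klf4 MO minus Nanog MO difference turned to -0.068 for UHRF1 and 0.105 for TET2. With the replicate block and the factor the log2 fold change turned to 0.019 for DNMT3A and -0.11 for TET1 after Nanog MO, 0.094 for DNMT3A after PouV MO, and 0.13 for TET1 and 0.19 for TET2 after Klf4 MO. With the replicate block and no factor it turned to 0.037 for DNMT3A after PouV MO and 0.0093 for DNMT1 after Klf4 MO, and differences turned to 0.080 for DNMT1 and 0.039 for DNMT3B (PouV MO minus Nanog MO) and to 0.17 for DNMT1, 0.198 for DNMT3B and 0.106 for TET2 (Klf4 MO minus Nanog MO). With single samples left out TET2 after Nanog MO ran from -0.20 to 0.049, turning to 0.033 without Nanog control 2 and 0.049 without Nanog MO 3, and DNMT3A after PouV MO from -0.094 to 0.0011, turning without PouV MO 4. None of these values passed the threshold, and the cause was not tested. The block changed no call of the 6 genes.

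Counts over all genes moved more. Against 51 (Nanog MO), 127 (PouV MO) and 3 (Klf4 MO), they were 26, 63 and 440 (160 higher, 280 lower) without the factor, 113, 515 (300 higher, 215 lower) and 78 in DESeq2, 33, 0 and 0 with the controls of one experiment, 56, 35 and 2 with the block and the factor, and 271, 73 and 0 with the block alone. Over the pairs 290 genes became 24 without the replicate block, 796 in DESeq2 and 136 with the factor. Leaving out 1 sample gave 25 (without Nanog MO replicate 3) to 60 for Nanog MO, 16 (without PouV MO replicate 3) to 498 (without PouV MO replicate 4) for PouV MO and 0 (without Klf4 MO replicate 1) to 759 (without Klf4 control replicate 3) for Klf4 MO, and leaving out 1 pair gave 73 (without Nanog pair 1) to 276.

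Every value of the 6 genes rested on at least 434 reads. The SEs in single knockdowns ran from 0.0786 to 0.238 on the log2 scale, and a p that misses the threshold does not show that levels were equal.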
